A study of Caenorhabditis elegans with 2 samples.

Results

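Aminoacyl-tRNA synthetase genes were taken as the protein-coding genes of Ensembl release 115 (WBcel235) whose symbol is a single letter followed by ars- and a number, which gave 32 of 19973 protein-coding genes. Of these, 17 encode cytosolic enzymes, 12 encode mitochondrial enzymes, and 3 (gars-1, hars-1 and kars-1) are single genes for both compartments. The data are peak lists from chromatin immunoprecipitation sequencing (ChIP-seq), which finds the DNA that a protein sits on, of the transcription factor CEH-31 in whole late Caenorhabditis elegans embryos. The 2 biological replicates were hermaphrodites of strain OP370, collected 5 h after egg bleaching. All animals carried the integrated transgene wgIs370, which makes CEH-31 with a GFP-FLAG tag at its C terminus, together with the unc-119(tm4063) allele, and the fusion protein was pulled down through its GFP. There is no second group, so the synthetase genes were compared with the other genes of the same lists and with each other. Whole embryos were used, so a site bound in few cells and a site bound weakly in many cannot be told apart.

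Aminoacyl-tRNA synthetases join each amino acid to its transfer RNA, the step that fixes the genetic code. In animals, separate nuclear genes encode most of the enzymes for the cytosol and for the mitochondria. The mitochondrial enzymes charge tRNAs that translate only the few proteins encoded by mitochondrial DNA, whereas the cytosolic enzymes serve all other translation. CEH-31 is a homeodomain protein of the Bar class, a class known from neuronal development.

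The authors kept 3697 reproducible peaks, called the optimal list here, and an optimal summit was counted for a gene when it lay between 1000 bp upstream and 200 bp downstream of the gene start. For many worm genes that start is a trans-splice site and not the site where transcription begins. By this count 7 of the 32 synthetase genes had an optimal summit (21.9%, 95% Wilson interval 11.0 to 38.8), against 11.5% of all protein-coding genes. They were mars-1, rars-1, nars-1 and fars-1 among the cytosolic enzymes, ears-2 and yars-2 among the mitochondrial ones, and kars-1 for both compartments. The interval covers the number of genes only, and its lower bound is below the share of all genes. When a summit was counted only for the gene whose start was nearest to it, 4 of 32 members remained (12.5%, interval 4.97 to 28.1), against 8.49% of all genes, and these 4 were ears-2, kars-1, mars-1 and yars-2. Thus rars-1, nars-1 and fars-1 were reached only by optimal summits that lay nearer to another gene.

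**Figure D1:**
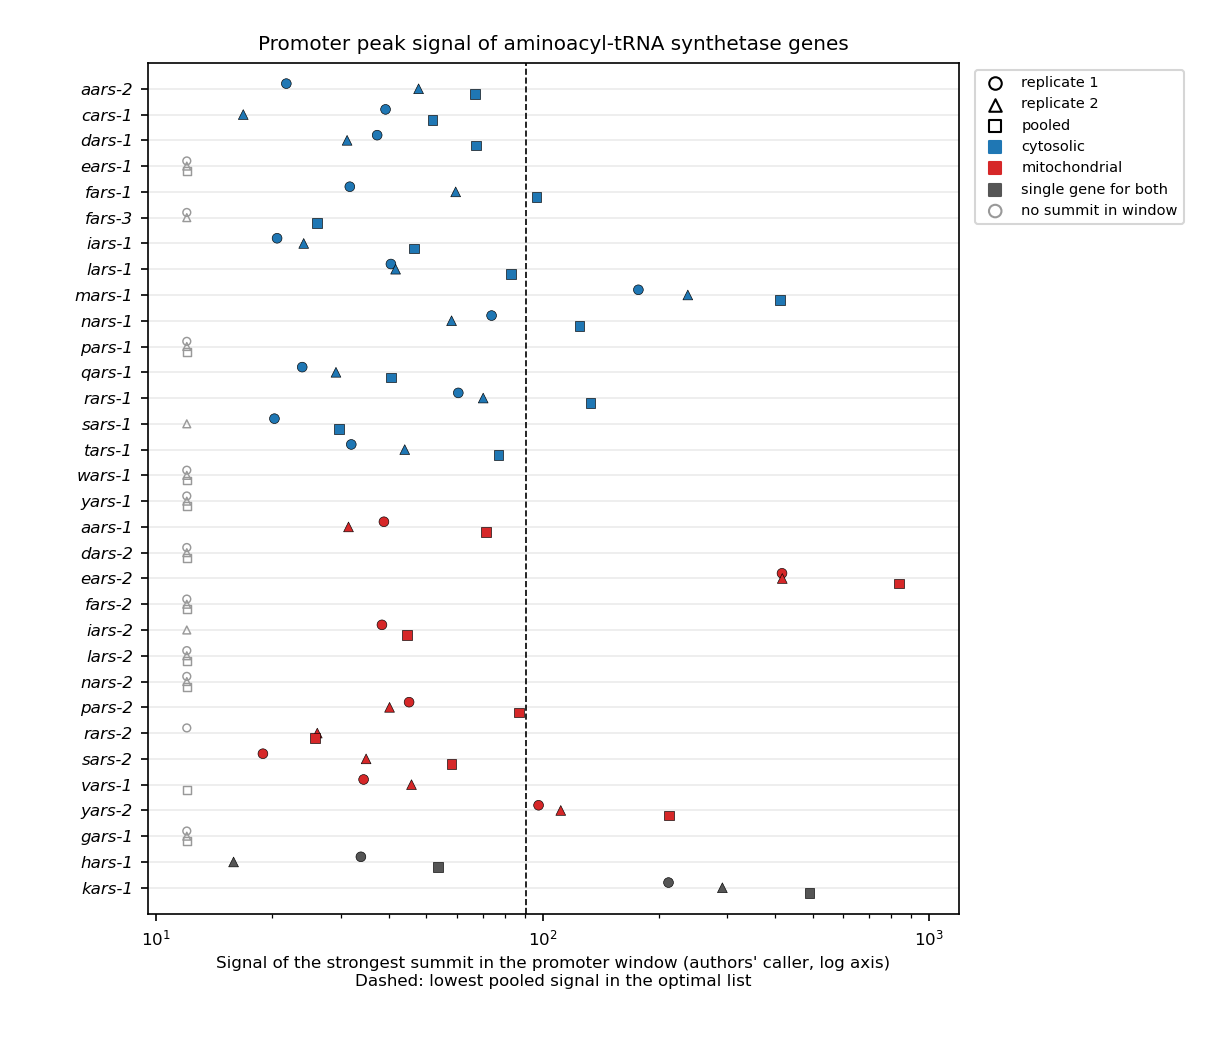
Signal of the strongest summit in the promoter window of each synthetase gene (log axis) in replicate 1 (circles), replicate 2 (triangles) and the pooled replicates (squares), coloured by compartment; open grey symbols mark lists without a summit in the window, and the dashed line, which applies to the squares, is the lowest signal in the optimal list, 90.5. Pooled signal ran up to 839 at ears-2, and 10 of 32 members had no pooled summit.

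The strongest synthetase site was at ears-2, the mitochondrial glutamyl-tRNA synthetase, on chromosome IV. Its peak (390319 to 390678, ce11) had its summit at 390494, which is 26 bp upstream of the gene start, and a signal of 839, the 17th highest of the 3697 optimal peaks. Signal is the score of the authors' peak caller, with a scale that is not given in the sources used here, and it is compared within a list only. The replicates placed the site alike, at signal 417 and rank 16 in replicate 1 and at signal 418 and rank 17 in replicate 2. The summit lies in a gap of 91 bp between ears-2 and the divergent gene uncp-18, whose start is 66 bp from it, so the peak cannot be assigned to either gene alone. The whole gap is printed 5′ to 3′ on the minus strand, that of ears-2, because it holds the synthetase summit of highest signal; capitals mark CGCG, a word counted further on.
ears-2, chrIV:390469-390559: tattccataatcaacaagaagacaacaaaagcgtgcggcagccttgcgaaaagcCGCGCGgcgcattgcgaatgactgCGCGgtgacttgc
The gap held 3 CGCG matches, overlapping ones counted separately, and 45.3% of the 201 bp around the summit was G or C.

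The next strongest synthetase sites, at kars-1 and mars-1, each consisted of 2 optimal summits within 1 peak interval, a form found in 37 of 3658 optimal intervals. At kars-1, the lysyl-tRNA synthetase of both compartments, the peak on chromosome II (7072614 to 7073028) had summits 362 and 564 bp upstream of the gene start, with signals of 491 (rank 115) and 157 (rank 1717). Replicate 2 resolved both, with signals of 292 (rank 66) and 58.0 (rank 2849). Replicate 1 had a single summit between them, 453 bp upstream, with a signal of 212 (rank 175). The site therefore ranked high in both replicates, but its 2-summit form was seen in replicate 2 and not in replicate 1. The summit farther from kars-1 also falls in the window of kat-1, which encodes a thiolase of fatty acid oxidation, though kars-1 has the nearer start.

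At mars-1, the cytosolic methionyl-tRNA synthetase on chromosome IV, the peak (11635637 to 11636027) had summits 307 and 508 bp upstream, with signals of 411 (rank 212) and 205 (rank 1046). Both replicates resolved both summits. The nearer one had a signal of 177 (rank 282) in replicate 1 and 238 (rank 150) in replicate 2, and the farther one 79.9 (rank 1602) and 130 (rank 714). In each replicate the nearer summit had the higher signal. The window of F58B3.6, the gene upstream, also holds both. The 4 summit regions of kars-1 and mars-1 are printed on the minus strand of both genes, each 75 bp to either side of the summit. Over 201 bp these summits had 30.8% to 33.3% G or C. The median was 45.8% at all optimal summits and 35.8% in flanking windows 1000 bp away.
kars-1 at 362 bp, chrII:7072702-7072852: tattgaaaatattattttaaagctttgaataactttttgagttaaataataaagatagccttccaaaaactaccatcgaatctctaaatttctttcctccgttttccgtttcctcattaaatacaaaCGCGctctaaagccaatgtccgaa
kars-1 at 564 bp, chrII:7072904-7073054: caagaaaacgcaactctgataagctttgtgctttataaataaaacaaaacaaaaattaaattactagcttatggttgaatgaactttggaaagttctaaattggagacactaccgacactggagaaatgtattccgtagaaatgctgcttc
mars-1 at 307 bp, chrIV:11635719-11635869: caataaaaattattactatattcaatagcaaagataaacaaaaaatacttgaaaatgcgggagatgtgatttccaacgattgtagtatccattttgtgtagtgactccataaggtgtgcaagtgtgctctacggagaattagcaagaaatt
mars-1 at 508 bp, chrIV:11635920-11636070: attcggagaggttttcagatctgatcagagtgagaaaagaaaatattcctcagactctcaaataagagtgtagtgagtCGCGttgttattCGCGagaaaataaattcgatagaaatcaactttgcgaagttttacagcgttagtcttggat

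The other mitochondrial member with an optimal summit was yars-2, the mitochondrial tyrosyl-tRNA synthetase on chromosome IV. Its summit at 4712628 lay 4 bp upstream of the gene start, with a signal of 212 (rank 976), and no other gene's window held it. Replicate 1 gave a signal of 97.7 (rank 1115) and replicate 2 one of 111 (rank 978), with summits at most 5 bp away. The optimal interval (4712532 to 4712720) was 189 bp wide, and 325 of the 3697 optimal peaks (8.79%) were at most that wide, but in both replicate lists the yars-2 interval was 436 bp wide. The stretch upstream of the gene start, on the minus strand, contains no CGCG, though the word occurs elsewhere within 100 bp of the summit.
yars-2, chrIV:4712625-4712703: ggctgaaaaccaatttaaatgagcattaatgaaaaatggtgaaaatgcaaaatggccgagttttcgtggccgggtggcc

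The remaining 3 sites, all of cytosolic enzymes, were weaker, and their optimal summits lay nearer to another gene. The summit counted for rars-1, the arginyl-tRNA synthetase, is at 4918160 on chromosome III (peak 4917940 to 4918379), 983 bp upstream of rars-1 but 152 bp from the start of rpb-8, a subunit of RNA polymerase. The gene rpb-8 is on the same strand and ends 65 bp before rars-1. The signal was 133 (rank 2192), with 60.5 (rank 2472) in replicate 1 and 70.2 (rank 2160) in replicate 2. This region, on the minus strand, is shown because it held 4 CGCG matches, the most among the printed regions.
rars-1, chrIII:4918085-4918235: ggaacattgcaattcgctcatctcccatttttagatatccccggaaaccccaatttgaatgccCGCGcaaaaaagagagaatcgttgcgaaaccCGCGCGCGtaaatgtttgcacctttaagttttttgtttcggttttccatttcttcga

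The summit counted for nars-1, the asparaginyl-tRNA synthetase, is at 7090453 on chromosome I, 391 bp upstream, with a signal of 125 (rank 2378), and lies 287 bp from the start of nduf-6, a subunit of respiratory complex I. Replicate 1 had a signal of 73.8 (rank 1826) there, and replicate 2 had 58.2 (rank 2842) with its summit 90 bp away. That replicate 2 summit, 301 bp upstream of nars-1, was nearer to nars-1 than to nduf-6. The nearer of these genes thus differed between the replicates. The summit counted for fars-1, which encodes a subunit of the phenylalanyl-tRNA synthetase, is at 6215588 on chromosome I, 903 bp upstream, in an annotated 3′ UTR and 139 bp from the start of rbm-5. Its signal of 96.5 (rank 3430) was the lowest among the members, its −log10 q of 3.36 was the only one of the 9 member summits below the ceiling of 3.83 reached by 3371 of the optimal peaks, and the replicates differed, with 31.7 (rank 6710) in replicate 1 and 59.6 (rank 2743) in replicate 2. With the 3697 strongest peaks of replicate 1 in place of the optimal list, fars-1 lost its summit and the other 6 members kept theirs.

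**Figure D2:**
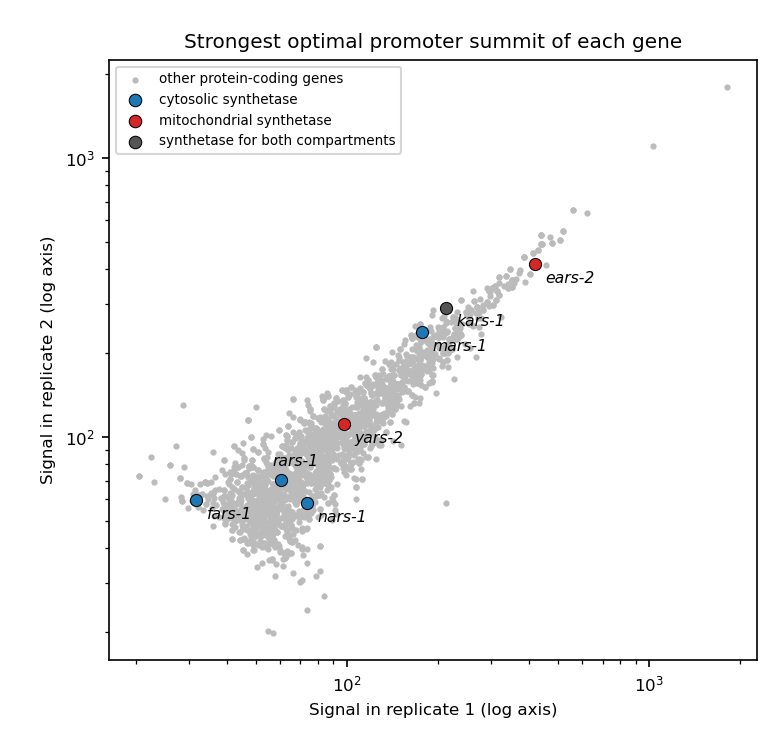
Signal of the strongest optimal promoter summit of each gene in replicate 1 (x axis) and replicate 2 (y axis), both log axes, with the 7 synthetase genes coloured by compartment and other protein-coding genes in grey. The highest member is ears-2, at 417 and 418, and fars-1 has the lowest replicate 1 signal of the members, 31.7.

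Over all members, 8 of the 9 optimal summits were intergenic, against 86.9% of the 1775 optimal summits in the window of any protein-coding gene, and none lay within 1000 bp of an annotated tRNA gene, against 2.25%. Both counts are near these shares. In 7 of 9 cases the summit lay in the window of another gene as well, against 33.4%, though a summit in several windows also has more genes to be counted for. A summit within 200 bp among the 3697 strongest peaks of each replicate was found for 8 of 9, against 82.7%; both kars-1 summits were matched to the same replicate 1 summit, so the 8 rest on 7 distinct replicate 1 summits. The median signal of the strongest summit per gene was 212 over the 7 members (range 96.5 to 839) and 169 over the 2299 protein-coding genes with an optimal summit (quartiles 122 and 266). The member median is within those quartiles, while ears-2, kars-1 and mars-1 are above the upper one.

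An optimal summit was present at 4 of 17 cytosolic genes (23.5%, interval 9.56 to 47.3) and at 2 of 12 mitochondrial genes (16.7%, interval 4.70 to 44.8), so the intervals overlap over most of their width. The medians over the few summits differed in position and strength, but the signals overlapped. The cytosolic mars-1 had 411 and the mitochondrial yars-2 had 212. The cytosolic medians also include rars-1, nars-1 and fars-1, whose summits lay nearer to another gene. The median distance of the strongest summit was 647 bp upstream in the 4 cytosolic genes and 15 bp in the 2 mitochondrial genes, against 240 bp over all genes, and the median signal was 129 in the cytosolic genes and 525 in the mitochondrial genes. Counted for the nearest gene only, 1 of 17 cytosolic genes (mars-1) and 2 of 12 mitochondrial genes (ears-2 and yars-2) remained. These medians rest on 4 and 2 genes and were not tested. Of 11 amino acids with a separate enzyme for each compartment among the members, none had optimal summits at both genes. With an optimal summit at so few genes of either compartment (11.5% over all genes), that count says nothing particular about the pairs. The cytosolic gene alone had a summit for arginine, asparagine and phenylalanine, the mitochondrial gene alone for glutamate and tyrosine, and neither gene for alanine, aspartate, isoleucine, leucine, proline and serine.

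**Figure D3:**
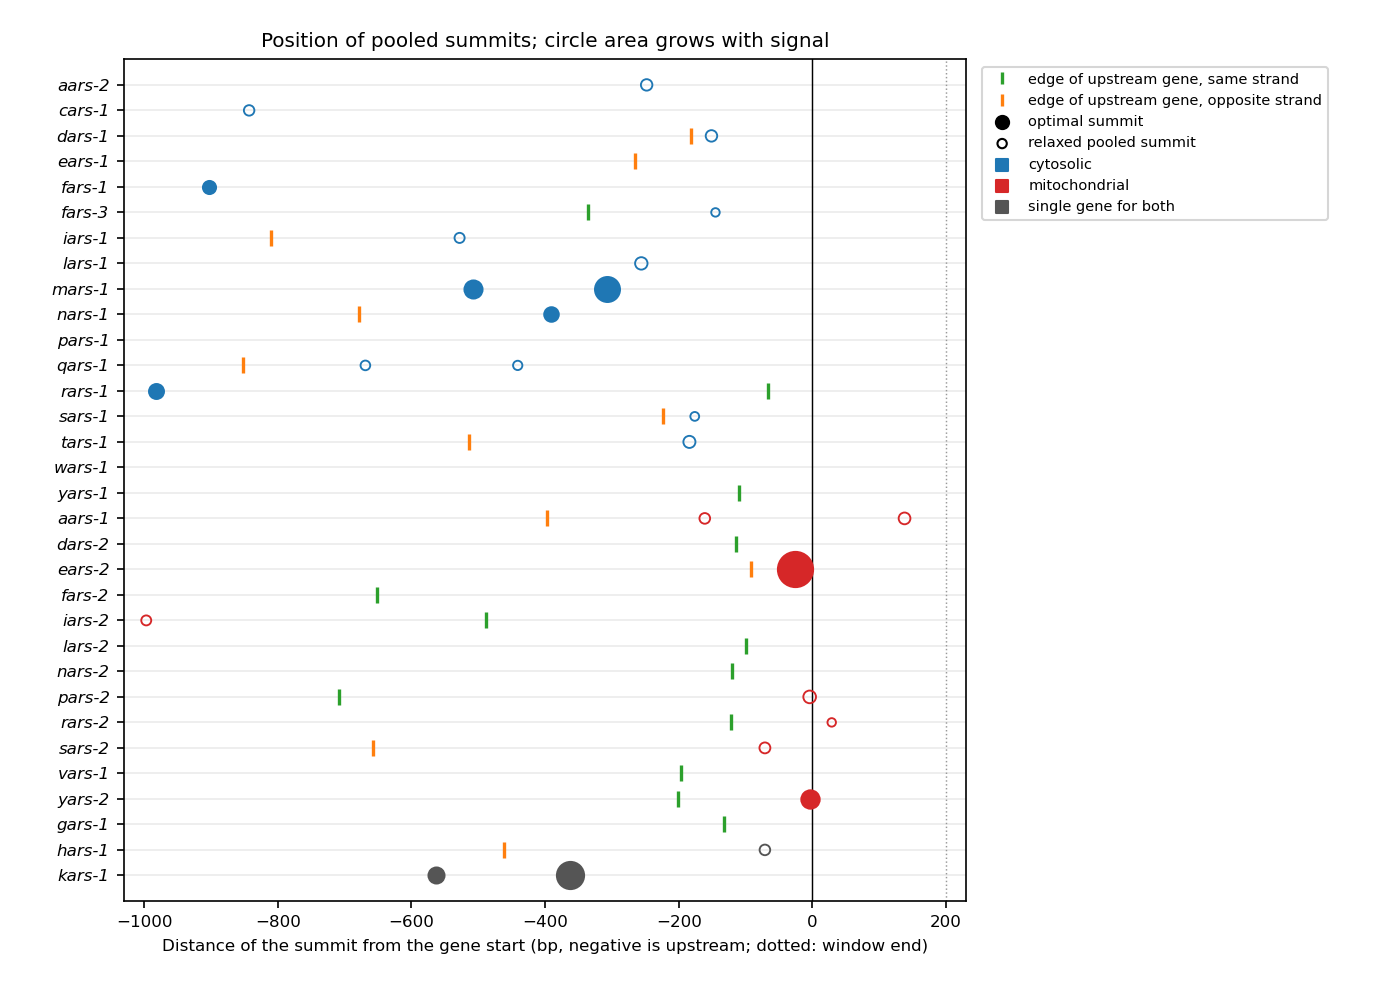
Distance of pooled summits from the gene start of each synthetase gene, in bp with upstream negative; filled circles are optimal summits, open circles are summits of the relaxed pooled list only, and circle area grows with signal. Ticks mark the edge of the upstream gene where it lies in the window (green on the same strand, orange on the opposite strand); the optimal summits of ears-2 and yars-2 lie 26 and 4 bp upstream, those of rars-1 and fars-1 983 and 903 bp upstream.

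The authors' relaxed pooled list, which holds 24555 peaks and background regions, reached many more members. In it 22 of 32 synthetase genes had a summit in the window (68.8%), against 33.5% of all genes, with 13 of 17 cytosolic genes (76.5%) and 7 of 12 mitochondrial genes (58.3%). The separate relaxed lists gave 21 members in replicate 1, against 31.1% of all genes, and 20 in replicate 2, against 32.3%. A summit anywhere in the window in both replicates was found for 19 of 32 members, against 23.7% of all genes. For this count the positions were not matched between the replicates. The member shares were thus above the background in each relaxed list, but these lists include background regions and show no bound site by themselves.

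Just below the lowest optimal signal of 90.5 was pars-2, the mitochondrial prolyl-tRNA synthetase, with a pooled signal of 87.0 (rank 3920) at a summit 4 bp upstream of the gene start. The replicates had signals of 45.1 and 40.2 there. It was followed by the cytosolic genes lars-1 (leucine), with 82.9 at 256 bp, and tars-1 (threonine), with 77.0 at 184 bp. Just above the threshold was fars-1, at 96.5. The other 12 genes with a relaxed pooled summit only were aars-1, dars-1, aars-2, sars-2, hars-1, cars-1, iars-1, iars-2, qars-1, sars-1, fars-3 and rars-2, in falling order of signal between 71.4 and 25.8. Over all 15 such members the median signal was 53.6, against 42.0 over the 4384 protein-coding genes of that kind. It was 51.9 in the 9 cytosolic genes among them and 58.1 in the 5 mitochondrial genes.

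No pooled summit was listed for 10 members. They were the cytosolic ears-1, pars-1, wars-1 and yars-1, the mitochondrial dars-2, fars-2, lars-2, nars-2 and vars-1, and gars-1, the glycyl-tRNA synthetase of both compartments. For 9 of them no list had a summit in the window. The exception was vars-1, the mitochondrial valyl-tRNA synthetase, with a signal of 34.4 (rank 5838) 100 bp downstream of its start in replicate 1 and of 45.8 (rank 4023) 41 bp upstream in replicate 2. The nearest optimal summit to gars-1, 9058 bp from its start, is one of the strongest of the list, with a signal of 964 (rank 10), and lies 35 bp from the start of K10D2.5.

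The synthetase genes vary in what lies upstream of them. The neighbouring gene was on the same strand for 14 of 32 members, against 54.6% of all genes, and this held for 4 of 17 cytosolic genes and for 9 of 12 mitochondrial genes. An optimal summit was present at 2 of the 14 members with a same-strand neighbour, against 6.85% of such genes, and at 5 of the 18 with an opposite-strand neighbour, against 17.1% of such genes. The median gap to the upstream gene was 163.5 bp for the same-strand members and 743.5 bp for the opposite-strand members, against 936 and 1550 bp over all genes. Of 8 same-strand members with a gap under 200 bp, 6 had no relaxed pooled summit (dars-2, gars-1, lars-2, nars-2, vars-1 and yars-1), against 72.8% of all protein-coding genes so arranged, so the members' count is near the background. The part of gene arrangement in the counts by compartment was not tested.

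Optimal summits outside the window lay within 2000 bp of the start of 3 more members. The strongest was inside tars-1, whose summit on chromosome II at 11694690 (peak 11694470 to 11694909) had a signal of 161 (rank 1644), with 66.1 (rank 2164) in replicate 1 and 90.4 (rank 1463) in replicate 2. It lies 967 bp downstream of the gene start, in an intron, but 397 and 613 bp upstream of the starts of 2 of the gene's 3 annotated transcripts. With the start of any transcript in place of the gene start, tars-1 would count as a member with an optimal summit. The summit in aars-1, the mitochondrial alanyl-tRNA synthetase, lies 398 bp inside the gene (signal 98.0, rank 3364), and that near iars-2, the mitochondrial isoleucyl-tRNA synthetase, lies 1850 bp upstream and nearer to C25A1.16 (signal 125, rank 2379). For the 25 members without an optimal promoter summit, the median distance to the nearest optimal summit was 9058 bp, against 14275.5 bp over all genes without one.

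Sequence around the member summits was described by counts of short words on both strands, within 100 bp of each summit. TAATTG, a core known for Bar-class homeodomains, was present at 1 of 9 member summits (mars-1 at 508 bp) and at 12.1% of all optimal summits, against 15.1% of flanking windows 1000 bp away. TAAACG, another such core, was at none of the 9 and at 6.11% of all optimal summits, against 6.69% of flanks. In the 300 bp from 250 bp upstream of the gene start, TAATTG was present in 10 of 32 member promoters and 23.6% of all promoters, and TAAACG in 2 of 32 and 10.7%. Words rich in G and C, picked as top words of all optimal summits, were also counted. Their shares over all optimal summits are therefore high by choice. CGCGCG was at 3 of 9 member summits (ears-2, rars-1 and yars-2) and 9.55% of all optimal summits, GCGCGC, which overlaps it, at 1 of 9 (rars-1) and 11.4%, and AGACGC at 1 of 9 (ears-2) and 23.4%, against 1.42%, 1.61% and 4.12% of flanks. The shorter CGCG is contained in both CGCGCG and GCGCGC and was chosen after the sequences were seen. It was at 7 of 9 member summits and 51.2% of all optimal summits, against 19.0% of flanks. For yars-2 and for the farther kars-1 summit the matches lie outside the printed stretches. The median G or C content was 34.3% over the 9 member summits and 45.8% over all optimal summits (quartiles 40.8% and 50.2%), against 35.8% in flanks. All optimal summits here include those outside promoter windows. The lowest member values, 30.8% to 33.3%, were those of kars-1 and mars-1, which each enter with 2 summits of 1 interval and so lower this median. The other member summits ran from 34.3% to 45.3%. A word match is a description of these letters and not a binding site.

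The synthetase share of 21.9% was set beside other genes of the translation machinery. These lists were taken by gene symbol. The RNA modification list holds symbols starting with elpc, trmt, nsun, adat or tut, and not all of its genes act on tRNA. The share with an optimal summit was 61 of 78 (78.2%) for cytosolic ribosomal proteins and 20 of 41 (48.8%) for translation initiation and elongation factors. It was 5 of 14 (35.7%) for the RNA modification list and 18 of 70 (25.7%) for mitochondrial ribosomal proteins. The synthetase share was below each of these and above the 11.5% of all genes, and its interval overlaps those of all but the cytosolic ribosomal proteins and includes the share of all genes. Counted for the nearest gene only, the synthetases had 12.5%, against 44.9% of cytosolic ribosomal proteins, 34.1% of translation factors, 21.4% of the RNA modification list and 18.6% of mitochondrial ribosomal proteins. By chromosome, the members with an optimal summit were 3 of 8 on IV, against 9.94% of all genes there, 2 of 9 on I, against 16.5%, 1 of 5 on II, against 10.5%, 1 of 6 on III, against 17.4%, and none of 4 on V, against 6.97%. No member is on X, and these counts are too small to set any chromosome apart.

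**Figure D4:**
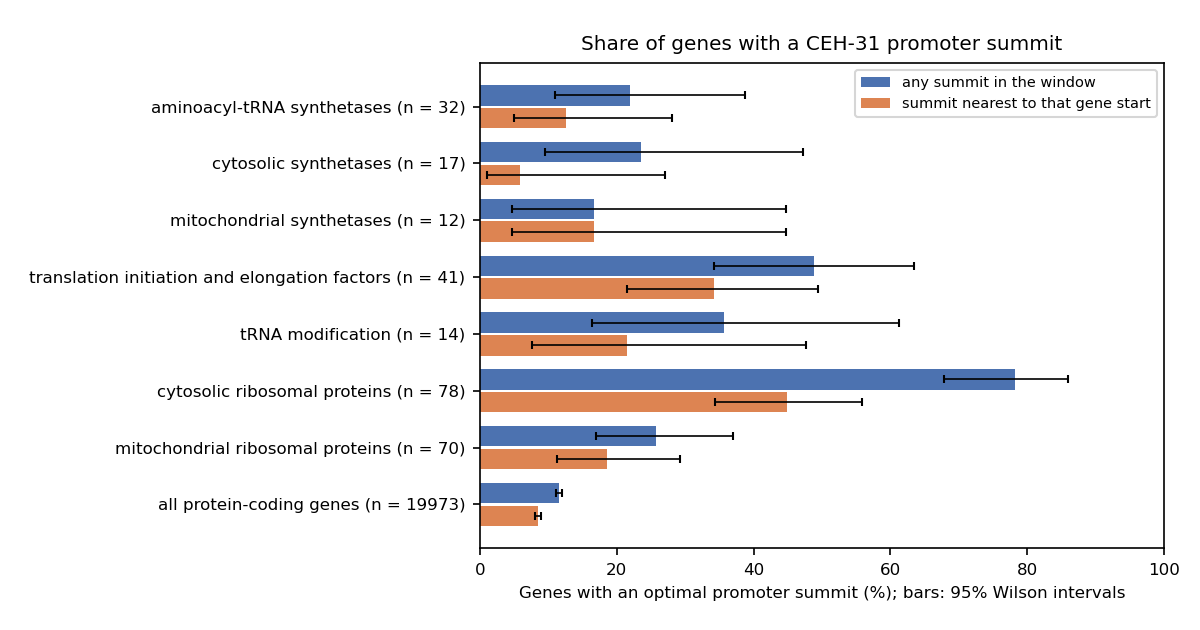
Share of genes (percent) with an optimal CEH-31 summit in the promoter window (blue) and with a summit nearest to that gene start (orange), for the synthetases, their compartments, other translation gene lists and all protein-coding genes; bars have 95% Wilson intervals. The synthetases stood at 21.9% and 12.5%, and cytosolic ribosomal proteins at 78.2% and 44.9%. In the list labelled tRNA modification, which was taken by gene symbol, not all genes act on tRNA.

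The symbol rule leaves out 4 genes whose RefSeq product names a synthetase. These are glp-4 (valine), K03B4.1 (serine), Y105E8A.20, which RefSeq calls mars-2 (mitochondrial methionine), and prx-10, whose product names include a mitochondrial tryptophan enzyme. None had an optimal summit in its window. In the relaxed pooled list glp-4 had a signal of 43.9 (rank 10816) 78 bp downstream of its start, K03B4.1 had 74.6 (rank 4783) 707 bp upstream, and the other pair had no summit.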

How the data were processed

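The authors deposited ChIP-seq peak lists in ce10 and ce11; the 4 ce11 lists were used (replicate 1 with 21175 peaks, replicate 2 with 22471, pooled with 24555, optimal with 3697). Per the text deposited beside them, the relaxed lists come from alignments set against a control library, which was not used here, and the optimal list holds the reproducible peaks drawn from them (a cut on the irreproducible discovery rate). The names of the aligner and caller, and the value of that cut, were not given in the sources used here. Signal, as deposited, is the score of the authors' caller, used to rank peaks within a list; the deposited −log10 q was only described. The lists hold no read counts, so depth is unknown.

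Summit positions were counted against Ensembl 115 gene starts with Python 3.11.15 and pandas 2.3.3, after a check on simulated data, and all coordinates are 1-based. A replicate's summit was matched to the nearest within 200 bp. Both replicates form 1 group, so no test between groups of samples was possible, and shares are given with 95% Wilson intervals. Compartments came from RefSeq product names for 14 members and a list from general knowledge for 18; tars-1, called cytoplasmic by RefSeq and placed in both compartments by that list, was counted as cytosolic. The synthetase genes and all lists and words were chosen with earlier results of these data known. Every member is accounted for, with full values for those with an optimal summit; other genes are named where they share or lie nearer a summit. Alternatives changed the window, peak strength, replicate, gene assignment, gene start and compartment source.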

Additional observations from a re-analysis of the deposited data

How the results depend on the processing

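Of the 7 synthetase genes with an optimal summit, 4 remained among the 1848 strongest optimal peaks and 4 when a summit counted for the nearest gene only (ears-2, kars-1, mars-1 and yars-2 in both cases), and 22 were counted with all relaxed pooled peaks. The count was 5 to 9 under the other windows, interval overlap and transcript starts, and 6 when a summit had to be among the strongest of both replicates, a choice made after seeing the data. Cytosolic genes numbered 4, against 2 with a window of 500 to 100 bp, 1 among the strongest peaks, 1 for the nearest gene only and 13 with relaxed peaks. Mitochondrial genes numbered 2, against 4 with a window of 2000 to 500 bp, 7 with relaxed peaks and 1 (of 4) by product names alone. Over all genes the count of 2299 became 1365 (6.83%) among the strongest peaks and 6683 with relaxed peaks. Leaving out a replicate gave 6 to 7 synthetase genes, 3 to 4 cytosolic, 2 mitochondrial and 2255 to 2305 of all genes; fars-1 was the gene lost without replicate 2. The median rank of the members' strongest summits was 976 in the optimal list. For the same 7 genes, still chosen by the optimal list, the matched summits had a median rank of 1115 in replicate 1 and 978 in replicate 2. In each list this median is the rank of yars-2. No paired analysis was possible because both replicates form 1 group and no test was run. Depth is unknown, so a member without a summit may be bound below what these lists show.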
